A study of Homo sapiens with 8 samples.

Results

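The p53 target genes described here were 30 genes whose transcription p53 is known to raise. They were taken as a list of symbols and matched to the gene identifiers of the tables through GENCODE release 29. The rule used no measured value, but the list was chosen with earlier results of these data known. All 30 were among the 58735 genes of the tables, and 29 were among the 16528 genes with enough reads to be tested. The exception was SPATA18, whose product takes part in mitochondrial quality control. It had 0 reads in all 8 libraries, which allows a level of up to 0.0306 to 0.0405 FPKM (3 reads, counting error only).

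Bulk RNA-seq was run on U2OS cells, a human osteosarcoma line with intact p53, in 4 groups of 2 libraries. Control cells were transduced with a control shRNA and KD cells with an shRNA against WSB2, and each kind was left unstimulated or received TNF-α over 5 h. WSB2 is a substrate receptor of a ubiquitin ligase, and the study asked how its loss alters the response of cells to TNF-α. The lines were made with lentiviral vectors and puromycin, so control cells carried a vector too. Which WSB2 shRNA and which TNF-α concentration these libraries had is not given in the sources used here. The libraries held 15601098 to 18677023 reads. Levels are FPKM, fragments scaled to exon length and library size, and fold changes are on the log2(FPKM + 1) scale, on which genes at or under about 1 FPKM change less than in FPKM itself. A gene was called at an adjusted p under 0.05 (limma on all genes tested, Benjamini-Hochberg). Nothing in the labels says that the 2 libraries of a group came from separate cultures, so the p-values measure the spread between these libraries, which may be technical.

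p53 is a transcription factor that is kept scarce by the ubiquitin ligase MDM2, itself a p53 target, and that accumulates after DNA damage or other stress. Its targets stop the cell cycle, repair DNA, adjust metabolism, or commit the cell to death through BH3-only proteins and death receptors. TNF-α acts mainly through NF-κB, and several p53 targets, among them genes of death receptors and of GADD45 proteins, are known to respond to both factors. U2OS cells keep wild-type p53 and do not express CDKN2A, whose product ARF restrains MDM2.

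The labels were checked first. WSB2 was at 27.7 and 28.0 FPKM in unstimulated control cells and at 8.38 and 8.52 in unstimulated KD cells. With TNF-α it was at 25 and 25.3 in control cells, against 9.0 and 9.18 in KD cells, so the knockdown was visible in all 4 KD libraries. All 6 NF-κB target genes examined were called higher with TNF-α in control cells, by log2 fold changes of 1.23 (ICAM1) to 3.87 (TNFAIP3). Of the osteoblast lineage markers, SPARC (216 to 293 FPKM) and COL1A1 (172 to 269) were abundant and RUNX2 was at 1.29 to 2.94, whereas SP7 and COL1A2 were below 0.1 FPKM in every library and IBSP was at 0. Leukocyte, epithelial and endothelial markers stayed below 0.5 FPKM, the highest being EPCAM at 0.482.

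The 2 unstimulated KD libraries stood apart from the other 6. Mitochondrial genes took 4.10 and 4.42% of their reads against 1.11 to 2.03% elsewhere, and the read-weighted GC content of their genes was 49.9 and 49.4% against 52.5 to 53.2%. Reads were found for 26225 and 26397 genes in these libraries and for 22072 to 22957 in the others. This pair enters 3 of the comparisons below: KD against control in the absence of TNF-α, TNF-α in KD cells, and how far the KD effect depended on TNF-α (the interaction). In that group the knockdown and the composition of its libraries cannot be told apart. The fold changes of the 2 other comparisons, KD against control with TNF-α and TNF-α in control cells, do not use the pair, but their p-values do, since all 8 libraries share 1 estimate of the spread. Without the pair 0 members were called for KD with TNF-α in place of 1, beside 0.0424% of all genes tested. For TNF-α in control cells 4 were called in place of 5, beside 2.68%.

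Without TNF-α, KD cells differed from control cells in 22 of the 29 genes, in both directions. RRM2B and MDM2 showed the largest rises and FDXR and PHLDA3 the largest falls. Called higher were 10 members, beside 29.8% of all genes tested, and called lower were 12, beside 30.2%. The median log2 fold change was -0.060 over the members and -0.0010 over all genes. In each of the 22, both KD libraries lay outside the range of the control libraries. The same held for PLK2, RPS27L and XPC, which were not called. The share of all genes without overlap is not given here, so this describes the members only. Scaling to total reads moved the median of all genes to 0.13 and the share of calls that were higher from 49.7 to 65.3%, and 13 members were then called higher and 10 lower, beside 39.4 and 20.9% of all genes.

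With TNF-α, 1 member differed between KD and control cells. BTG2 was called lower, beside 0.0545% of all genes tested, and no member was called higher, beside 0.0605%. Of the members, 6 had an unadjusted p under 0.05, beside 8.16% of all genes, and a voom fit of the recovered reads also called 1, beside 0.315%. The log2 fold changes ran from -0.58 (BTG2) to 0.48 (PLK3), with a median of -0.063 against -0.00015 over all genes.

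In control cells, TNF-α raised 5 members, namely GADD45A, TNFRSF10B, BBC3, PLK3 and PLK2, beside 3.1% of all genes tested, and none was called lower, beside 1.14%. Of the members, 7 had an unadjusted p under 0.05, beside 17.5% of all genes, and voom called 6 higher and 0 lower, beside 3.72 and 1.13%. Leaving out the second TNF-α library left 3 members called higher, beside 1.16% of all genes. Without the second unstimulated control library 10 were higher and 2 lower, and the shares of all genes rose with them to 8.66 and 4.23%. In the calls over all genes, 73.0% were higher, and 60.3% were when libraries were scaled to total reads.

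In KD cells, TNF-α was followed by 13 higher members, beside 31.1% of all genes tested, and 11 lower members, beside 31.4%. Scaled to total reads, the median of all genes was -0.19, the share of calls that were higher went from 49.8 to 31.4%, and 10 members were higher and 14 lower, beside 20 and 43.8% of all genes. With each library corrected for its trend with the GC content and exon length of the genes, 10 were higher and 8 lower, beside 29.1 and 27.8%. The interaction, the KD effect with TNF-α minus that without, was called positive for 10 members, beside 23.8%, and negative for 10, beside 22.3%. With total reads 6 were positive and 12 negative, beside 14.8 and 30% of all genes, and the share of positive calls over all genes went from 51.7 to 32.9%. These comparisons share their unstimulated KD libraries with each other and with KD against control without TNF-α, so their directions are not separate evidence.

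**Figure D1:**
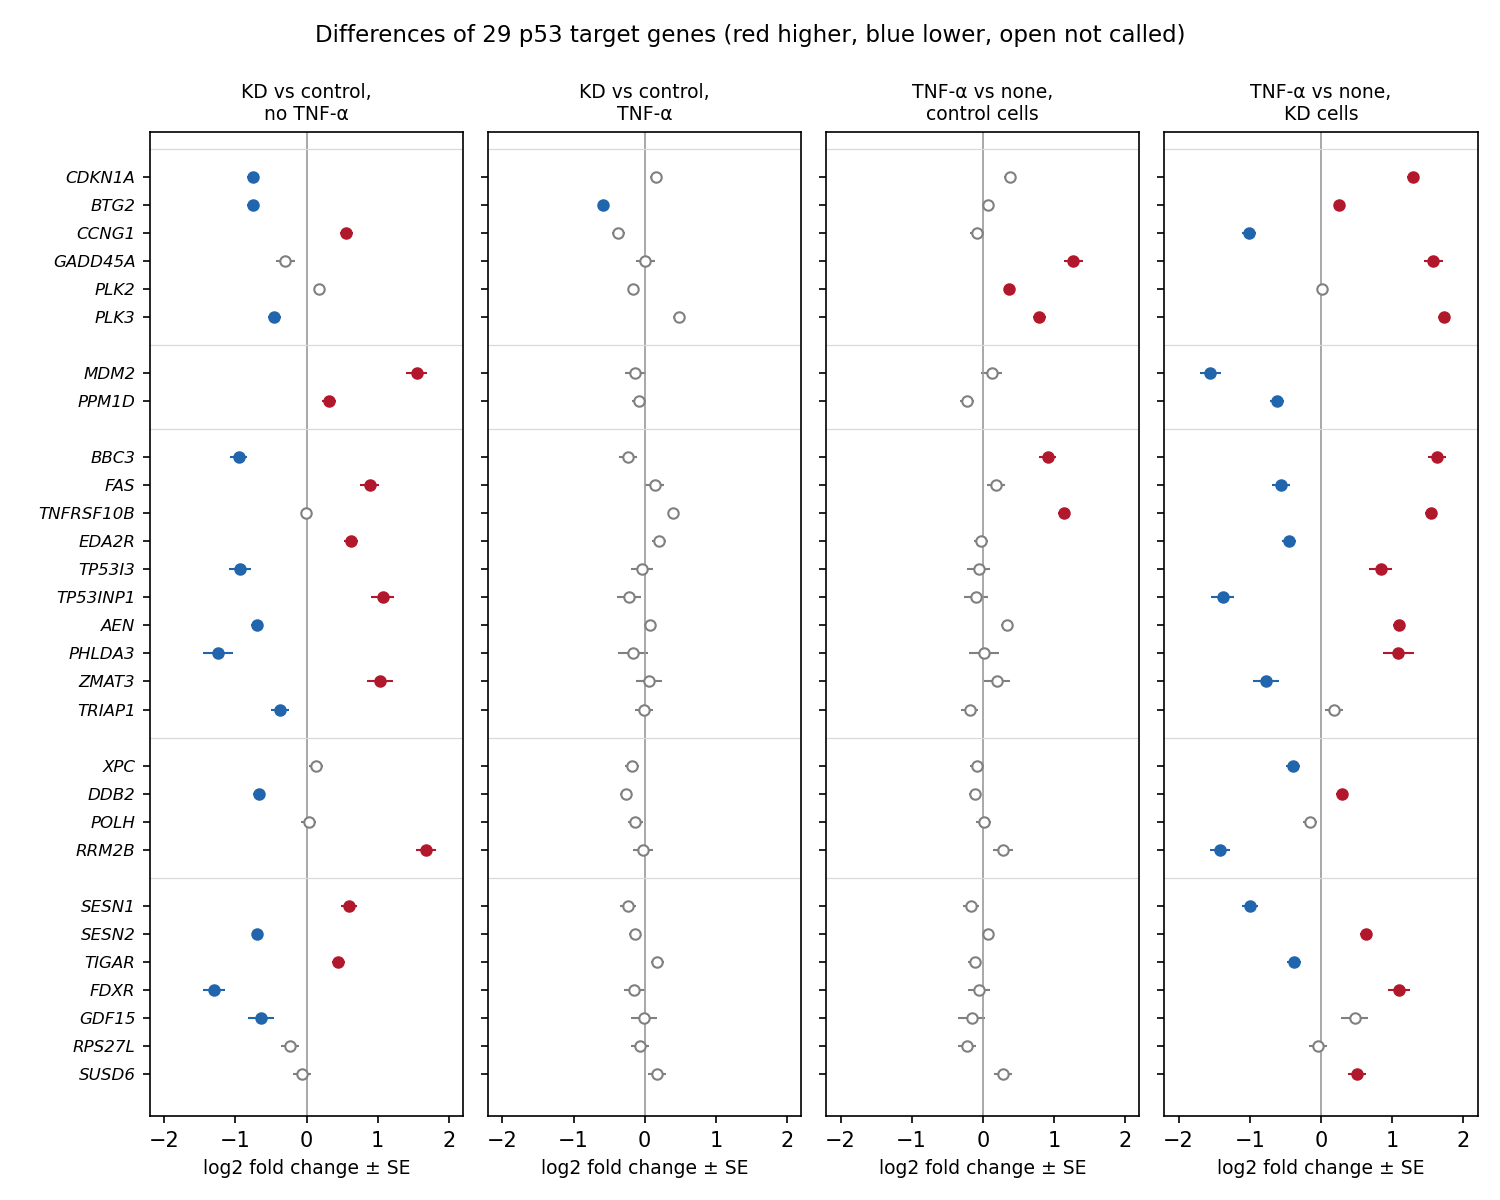
Log2 fold changes (x axis, log2(FPKM + 1) scale, bars are the standard error) of 29 p53 target genes in 4 comparisons of 2 against 2 libraries, grouped by role; red was called higher, blue lower, and open symbols were not called. The 10 red and 12 blue genes of the first panel face 1 called gene, BTG2, in the second, and under a correction for GC content and length GDF15 and PLK3 change sign in the first panel.

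Summed over the 30 genes, the level was 624 and 553 FPKM in unstimulated control libraries and 462 and 444 in unstimulated KD libraries. It was 710 and 759 in control cells with TNF-α and 735 and 731 in KD cells with TNF-α. The sum over all genes was also lower in the unstimulated KD libraries, and as a share of it the members took 0.196 and 0.201% in unstimulated control libraries against 0.204 and 0.2% in unstimulated KD libraries. With TNF-α the share was 0.242 to 0.254% in the 4 libraries. Abundant members weigh most in such a sum. In control cells the mean of GADD45A went from 50.1 to 122 FPKM with TNF-α. That of CDKN1A went from 89.3 to 116 and that of TNFRSF10B from 18.3 to 41.5. The median log2 fold change of the 29 tested members was 0.014 there, with 16 above 0. CDKN1A was the most abundant member in 6 libraries and GADD45A in the 2 control libraries with TNF-α. The lowest tested member was TIGAR, with 303 reads over the 8 libraries. Exons shared with another gene can lend a member reads. They made up 45.6% of the exon length of TIGAR, 30.4% of XPC, 19.1% of PHLDA3, 9.21% of MDM2 and 8.93% of FAS, and the strand of counting is not given in the sources used here.

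**Figure D2:**
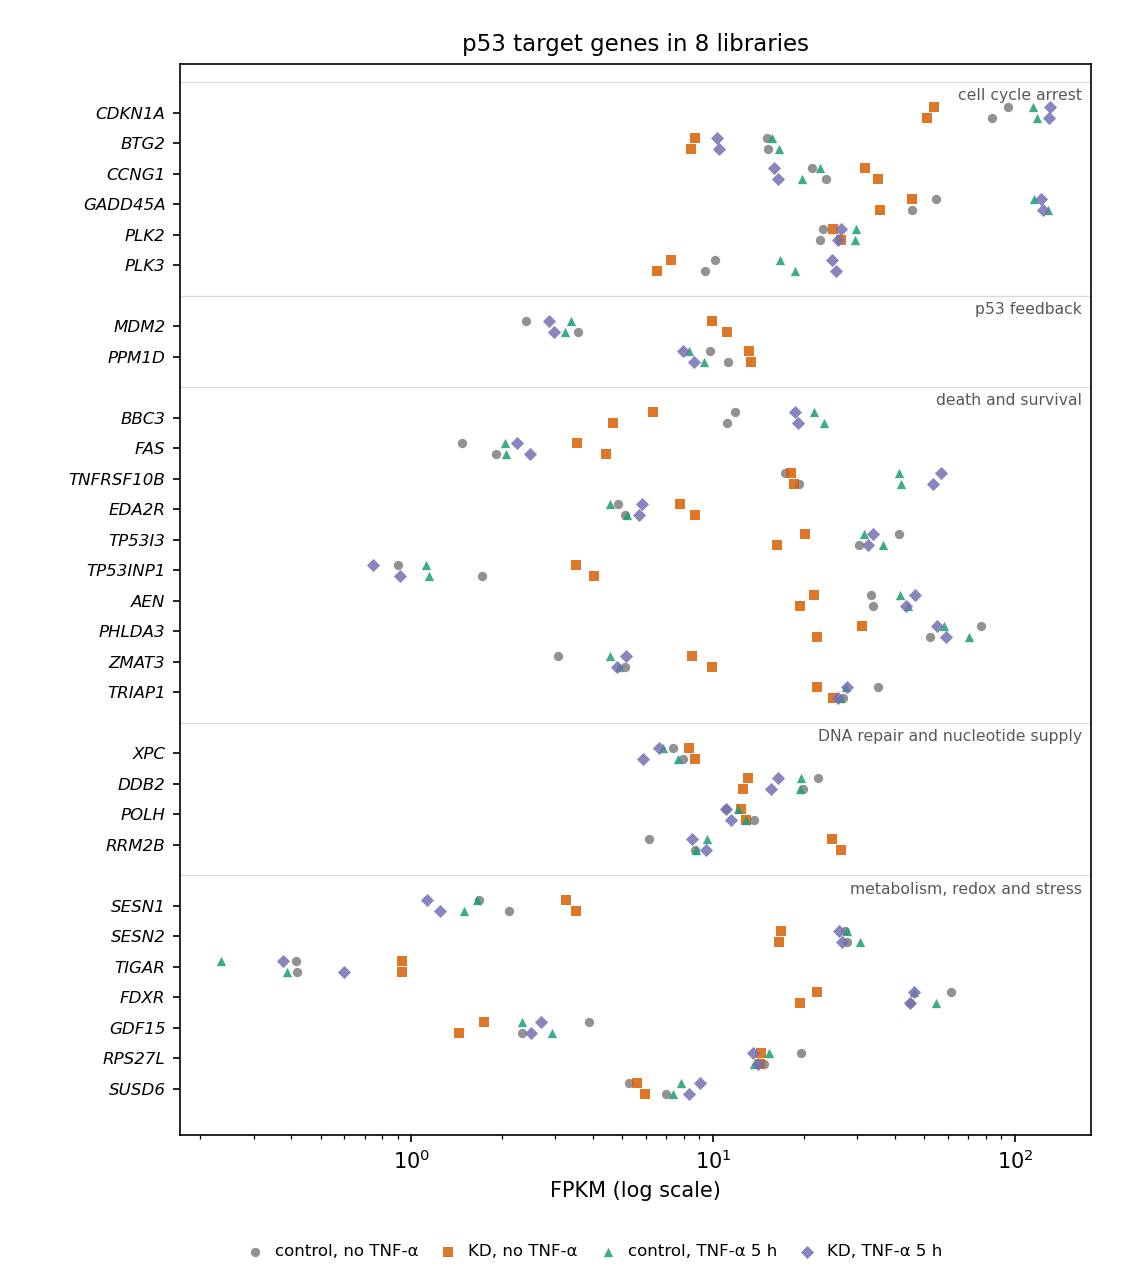
FPKM (x axis, log scale) of the 29 tested p53 target genes in each of the 8 libraries, grouped by role; each symbol is 1 library and its shape and colour give the group. The unstimulated KD libraries (orange squares) lie to the left of the others for CDKN1A, FDXR and AEN and to the right for MDM2, RRM2B and TP53INP1.

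Of the 6 members that act on cell cycle arrest, CDKN1A encodes the CDK inhibitor p21 (chr6:36676460-36687339, GRCh38). CDKN1A was at 94.5 and 84.0 FPKM in unstimulated control cells, 53.9 and 51.3 in unstimulated KD cells, 115 and 118 in control cells with TNF-α, and 130.4 and 129 in KD cells with TNF-α. The unstimulated KD libraries were the lowest of all and the groups did not overlap. Without TNF-α, CDKN1A was lower in KD cells by a log2 fold change of -0.75 ± 0.085 (SE, adjusted p = 0.000306), and in KD cells it was higher with TNF-α by 1.29 ± 0.085 (adjusted p = 4.42e-05). In control cells the TNF-α difference was 0.38 ± 0.085 and missed the threshold (adjusted p = 0.0524). The interaction of 0.91 was called (adjusted p = 0.00183).

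BTG2, an antiproliferative partner of the CCR4-NOT deadenylase (chr1:203305491-203309602), was the one member called lower in KD cells both without and with TNF-α. Unstimulated, BTG2 was at 15.1 and 15.2 FPKM in control cells against 8.69 and 8.44 in KD cells. With TNF-α it was at 15.7 and 16.5 FPKM in control cells against 10.3 and 10.5 in KD cells. Every control library thus exceeded every KD library, whatever the treatment. The log2 fold change was -0.76 ± 0.073 without TNF-α (adjusted p = 0.000197) and -0.58 ± 0.073 with it (adjusted p = 0.0489), and the interaction was not called (0.18, adjusted p = 0.201). The call with TNF-α was close to the threshold. It was lost in 6 of the 8 fits that left out 1 library, with log2 fold changes of -0.62 to -0.55, and with a replicate block (adjusted p = 0.12).

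GADD45A, a stress sensor that activates p38 signaling (chr1:67685061-67688338), had the largest TNF-α effect of the members in control cells. It was at 54.6 and 45.7 FPKM in unstimulated control cells, 45.7 and 35.8 in unstimulated KD cells, 116 and 128 in control cells with TNF-α, and 122 and 124 in KD cells with TNF-α. TNF-α libraries were all higher than unstimulated ones, and control and KD libraries overlapped at either condition. The log2 fold change was 1.27 ± 0.134 in control cells (adjusted p = 0.0019) and 1.58 ± 0.134 in KD cells (adjusted p = 7.95e-05), and the difference between them was not called (adjusted p = 0.221).

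PLK3, a stress-responsive polo-like kinase, was at 10.1 and 9.40 FPKM in unstimulated control cells and 7.24 and 6.51 in unstimulated KD cells. With TNF-α it was at 16.7 and 18.7 FPKM in control cells against 24.7 and 25.4 in KD cells. KD libraries were thus the lowest without TNF-α and the highest with it. TNF-α raised PLK3 by 0.79 in control cells (adjusted p = 0.00287) and 1.73 in KD cells (adjusted p = 2e-05). The interaction was 0.94 ± 0.128 (adjusted p = 0.00195). With TNF-α the KD difference of 0.48 was not called (adjusted p = 0.136).

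PLK2, a related kinase of the centriole cycle, had a smaller response. Its levels were 23.1 and 22.5 FPKM in unstimulated control cells, 25 and 26.6 in unstimulated KD cells, 29.7 and 29.6 in control cells with TNF-α, and 26.4 and 26.0 in KD cells with TNF-α. TNF-α raised it in control cells (0.36 ± 0.069, adjusted p = 0.0308), where all TNF-α libraries were higher, and the value in KD cells was 0.02. That call was lost in 6 of the 8 fits without 1 library. CCNG1, the gene of cyclin G1, went the other way from CDKN1A. It was at 21.2 and 23.7 FPKM in unstimulated control cells, 32.0 and 35.1 in unstimulated KD cells, 22.6 and 19.7 in control cells with TNF-α, and 15.9 and 16.4 in KD cells with TNF-α. CCNG1 was higher in KD cells without TNF-α by 0.56 ± 0.097 (adjusted p = 0.00169), and the value with TNF-α was -0.37 (adjusted p = 0.293), an interaction of -0.93 (adjusted p = 0.00236). With the GC content and length correction, the CCNG1 value without TNF-α was 0.06 and was not called (adjusted p = 0.542).

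The 2 feedback genes were both called higher in unstimulated KD cells, beside 29.8% of all genes tested. With the GC content and length correction MDM2 was still called and PPM1D was not (0.16, adjusted p = 0.15). MDM2, the ubiquitin ligase of p53 (chr12:68808176-68850686), was at 2.40 and 3.57 FPKM in unstimulated control cells and 9.91 and 11.1 in unstimulated KD cells. With TNF-α, MDM2 was at 3.38 and 3.22 FPKM in control cells against 2.87 and 2.98 in KD cells. The unstimulated KD libraries exceeded the other 6, which lay between 2.40 and 3.57. The log2 fold change for KD without TNF-α was 1.55 ± 0.147 (adjusted p = 0.00019), and the interaction was -1.68 ± 0.208 (adjusted p = 0.00159). The exon union by which FPKM divides is 13284 bases for MDM2, the longest among the members, so its level per length is low. PPM1D, the phosphatase WIP1 that acts on p53 and ATM, was at 9.73 and 11.2 FPKM in unstimulated control cells and 13.1 and 13.3 in unstimulated KD cells. With TNF-α it was at 8.33 and 9.33 FPKM in control cells against 7.93 and 8.63 in KD cells. PPM1D was higher in KD cells without TNF-α (0.31, adjusted p = 0.0256), and its interaction of -0.40 was just past the threshold (adjusted p = 0.0494) and held in 1 of the 8 fits without 1 library.

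Of the 10 members that act in cell death and survival, 4 were higher and 5 lower in unstimulated KD cells, beside 29.8 and 30.2% of all genes tested, and 2 were raised by TNF-α in control cells, beside 3.1%. The death receptor gene TNFRSF10B, which encodes the TRAIL receptor DR5, was at 17.3 and 19.3 FPKM in unstimulated control cells and 18.0 and 18.5 in unstimulated KD cells. With TNF-α it was at 41.1 and 41.9 FPKM in control cells against 57.1 and 53.4 in KD cells. Unstimulated libraries overlapped, and with TNF-α both KD libraries were above both control libraries. The TNF-α effect was 1.14 ± 0.079 in control cells (adjusted p = 0.000215) and 1.54 ± 0.079 in KD cells (adjusted p = 1.95e-05), with an interaction of 0.40 (adjusted p = 0.0209) that held in 3 of the 8 fits without 1 library and was 0.11 with total reads. The KD difference with TNF-α was also 0.40 and was not called (adjusted p = 0.161).

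FAS, the receptor of FAS ligand, was at 1.47 and 1.90 FPKM in unstimulated control cells, 3.54 and 4.42 in unstimulated KD cells, 2.04 and 2.06 in control cells with TNF-α, and 2.25 and 2.47 in KD cells with TNF-α. It was highest in the unstimulated KD libraries (0.89 ± 0.131, adjusted p = 0.000805), and its TNF-α difference in control cells was 0.19 (adjusted p = 0.527). EDA2R, a receptor of ectodysplasin A2, was at 4.83 and 5.12 FPKM in unstimulated control cells, 7.77 and 8.67 in unstimulated KD cells, 4.55 and 5.20 in control cells with TNF-α, and 5.81 and 5.69 in KD cells with TNF-α. EDA2R was higher in KD cells without TNF-α, by 0.63 ± 0.0999 (adjusted p = 0.00115), and the value with TNF-α, 0.20, was not called. Of these 3 receptor genes, TNFRSF10B was highest with TNF-α, whereas FAS and EDA2R were highest in unstimulated KD cells.

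BBC3 encodes PUMA, a BH3-only protein that triggers mitochondrial apoptosis. It was at 11.8 and 11.1 FPKM in unstimulated control cells and 6.33 and 4.64 in unstimulated KD cells. With TNF-α it was at 21.5 and 23.3 FPKM in control cells against 18.7 and 19.1 in KD cells. All TNF-α libraries were above all unstimulated ones, by 0.91 ± 0.124 in control cells (adjusted p = 0.00697) and 1.63 ± 0.124 in KD cells (adjusted p = 6.27e-05). With the GC content and length correction the TNF-α differences were 0.86 and 0.89, and the interaction went from 0.72 (adjusted p = 0.0126) to 0.028 (adjusted p = 0.885). KD libraries were lower at either condition, called without TNF-α (-0.95, adjusted p = 0.000484) and not with it (-0.24, adjusted p = 0.716). AEN, a nuclease of apoptotic cells, was at 33.4 and 34.0 FPKM in unstimulated control cells, 21.6 and 19.4 in unstimulated KD cells, 41.6 and 44.1 in control cells with TNF-α, and 46.6 and 43.4 in KD cells with TNF-α. It was lowest in unstimulated KD cells (-0.69, adjusted p = 0.000349), rose with TNF-α in KD cells (1.10, adjusted p = 5.94e-05), and its value of 0.34 in control cells was not called (adjusted p = 0.0706).

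PHLDA3, which competes with AKT for membrane lipids, was at 77.1 and 52.2 FPKM in unstimulated control cells, 31.2 and 22.1 in unstimulated KD cells, 58.1 and 70.6 in control cells with TNF-α, and 55.0 and 59.0 in KD cells with TNF-α. TP53I3, a quinone oxidoreductase linked to oxidative stress, was at 41.2 and 30.5 FPKM in unstimulated control cells, 20.2 and 16.3 in unstimulated KD cells, 31.6 and 36.5 in control cells with TNF-α, and 33.9 and 32.5 in KD cells with TNF-α. Both genes were lowest in unstimulated KD cells, by -1.24 ± 0.213 for PHLDA3 (adjusted p = 0.00159) and -0.93 ± 0.156 for TP53I3 (adjusted p = 0.00144). The replicates of each unstimulated group also differed visibly for these genes. With TNF-α, KD and control libraries overlapped for both.

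TP53INP1, a factor of autophagy and cell death, was at 0.905 and 1.71 FPKM in unstimulated control cells, 3.51 and 4.03 in unstimulated KD cells, 1.12 and 1.14 in control cells with TNF-α, and 0.744 and 0.914 in KD cells with TNF-α. ZMAT3, an RNA-binding zinc finger protein, was at 3.06 and 5.11 FPKM in unstimulated control cells, 8.48 and 9.91 in unstimulated KD cells, 4.55 and 4.88 in control cells with TNF-α, and 5.15 and 4.80 in KD cells with TNF-α. For both, the unstimulated KD libraries were above the other 6. The log2 fold changes were 1.07 ± 0.166 for TP53INP1 (adjusted p = 0.00102) and 1.03 ± 0.183 for ZMAT3 (adjusted p = 0.00189). TRIAP1, a small mitochondrial protein that favors survival, ranged from 22.1 to 35.1 FPKM over the 8 libraries. It was called lower in unstimulated KD cells (-0.38, adjusted p = 0.0322), and this held in 1 of the 8 fits without 1 library.

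RRM2B had the largest difference of the 4 genes of DNA repair and nucleotide supply. It encodes the p53-inducible small subunit of ribonucleotide reductase. RRM2B was at 6.14 and 8.67 FPKM in unstimulated control cells, 24.8 and 26.6 in unstimulated KD cells, 9.5 and 8.75 in control cells with TNF-α, and 8.48 and 9.48 in KD cells with TNF-α. The unstimulated KD libraries were far above the other 6, which lay between 6.14 and 9.5. The log2 fold change for KD was 1.68 ± 0.142 without TNF-α (adjusted p = 0.000155) and -0.02 ± 0.142 with it, an interaction of -1.70 (adjusted p = 0.00147). DDB2, which recognizes ultraviolet damage, was at 22.3 and 19.8 FPKM in unstimulated control cells, 13 and 12.5 in unstimulated KD cells, 19.5 and 19.4 in control cells with TNF-α, and 16.4 and 15.5 in KD cells with TNF-α. KD libraries were below control libraries at either condition, and the difference was called without TNF-α (-0.67, adjusted p = 0.000379) and not with it (-0.27, adjusted p = 0.387). XPC, a damage sensor of nucleotide excision repair, ranged from 5.84 to 8.70 FPKM, and POLH, a translesion polymerase, from 11 to 13.7. Neither was called between KD and control cells, and XPC was called lower with TNF-α in KD cells (-0.40, adjusted p = 0.00888).

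Among the 8 genes of metabolism, redox and stress, FDXR had the largest fall. FDXR encodes ferredoxin reductase of mitochondrial electron transfer (chr17:74862497-74873031). It was at 61.6 and 44.8 FPKM in unstimulated control cells, 22.1 and 19.4 in unstimulated KD cells, 46.3 and 54.9 in control cells with TNF-α, and 46.1 and 45.0 in KD cells with TNF-α. The unstimulated KD libraries were below the other 6. The log2 fold change was -1.30 ± 0.153 without TNF-α (adjusted p = 0.000345) and -0.14 ± 0.153 with it, an interaction of 1.16 (adjusted p = 0.00465).

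The sestrins SESN1 and SESN2, both inhibitors of mTORC1, differed in opposite directions. SESN1 was at 1.68 and 2.11 FPKM in unstimulated control cells, 3.25 and 3.52 in unstimulated KD cells, 1.64 and 1.49 in control cells with TNF-α, and 1.13 and 1.25 in KD cells with TNF-α. SESN2 was at 27.3 and 27.8 FPKM in unstimulated control cells, 16.8 and 16.6 in unstimulated KD cells, 27.7 and 30.7 in control cells with TNF-α, and 26.1 and 26.6 in KD cells with TNF-α. Without TNF-α, KD cells had more SESN1 (0.60 ± 0.113, adjusted p = 0.00254) and less SESN2 (-0.69 ± 0.076, adjusted p = 0.000279), and with TNF-α neither difference was called. With the GC content and length correction, SESN1 was still called without TNF-α (0.32, adjusted p = 0.0228) and SESN2 was not (-0.14, adjusted p = 0.175). TIGAR, a phosphatase that lowers glycolytic flux, ranged from 0.235 to 0.929 FPKM and was called higher in unstimulated KD cells (0.45, adjusted p = 0.00435). GDF15, a secreted stress cytokine, ranged from 1.44 to 3.87 FPKM and was called lower there (-0.64, adjusted p = 0.0187). RPS27L, a ribosomal protein paralog (13.6 to 19.6 FPKM), and SUSD6, a membrane protein of the DNA damage response (5.24 to 9.01), were not called between KD and control cells, and SUSD6 was called higher with TNF-α in KD cells (0.51, adjusted p = 0.00866), a call lost with the GC content and length correction (0.25, adjusted p = 0.096). In bulk RNA, fewer cells that express a gene and less RNA per cell cannot be told apart for any of these levels.

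Which members rose and which fell in unstimulated KD cells went with GC content, taken from the longest transcript of each gene. The 10 higher members had a GC content of 36.4 to 45.2% (median 40.7%), the 12 lower members 43.6 to 69.7% (median 59.0%), and the 7 others 43.3 to 52.6%. Across the 29 members, Spearman's rho between GC content and log2 fold change was -0.84, and across 16520 genes tested it was -0.68. Genes are not independent and share these libraries, so both are descriptions. For KD against control with TNF-α rho was 0.0020 over the members and 0.035 over all genes. Without TNF-α, RRM2B and MDM2 lay above the range that holds the middle 80% of all genes of like GC content, and PHLDA3, FDXR and TRIAP1 lay below it. With TNF-α, where that range was narrower, PLK3, TNFRSF10B, EDA2R and TIGAR lay above it. BTG2, CCNG1, DDB2, BBC3, PLK2, SESN1, TP53INP1 and XPC lay below it, and of these members BTG2 alone was called.

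**Figure D3:**
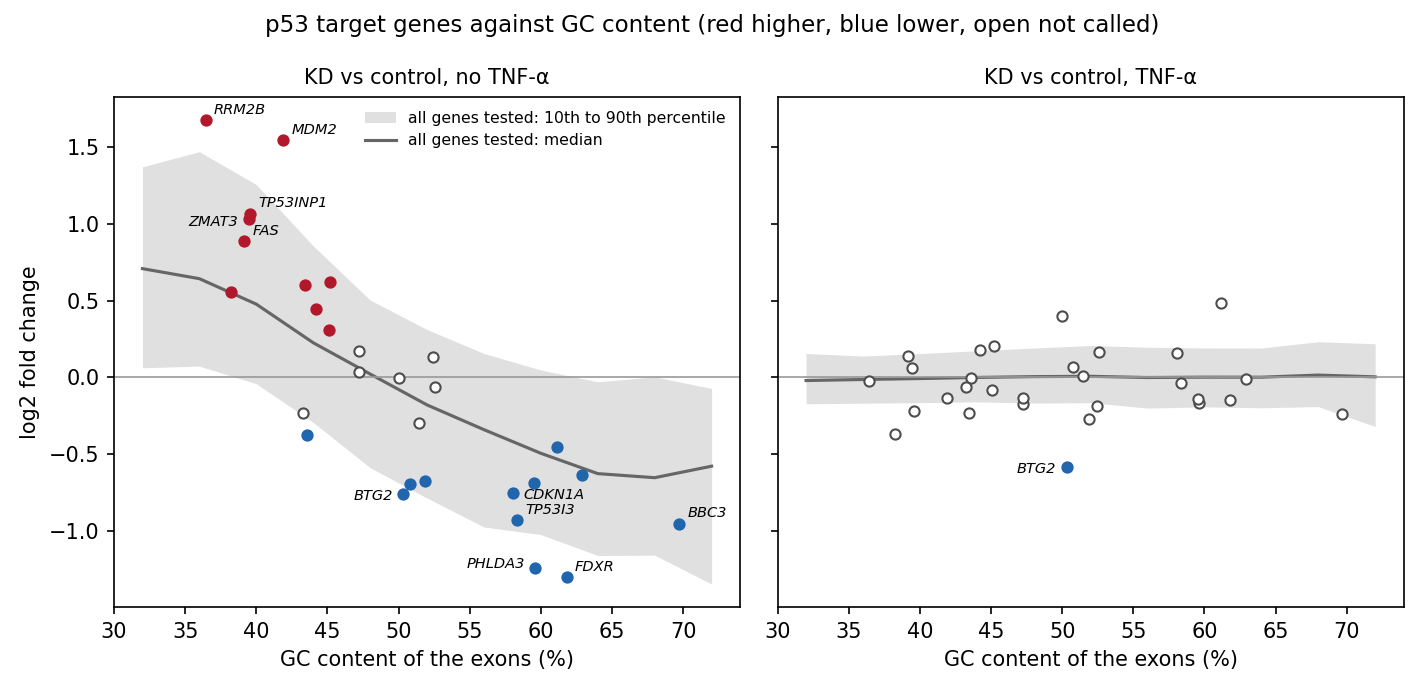
Log2 fold change (y axis) of KD against control, without and with TNF-α, against the GC content of the longest transcript (x axis, labeled exons, %), for 29 p53 target genes. The line and the band give the median and the 10th to 90th percentile of all genes tested in bins of GC content. Without TNF-α the 10 higher members (red) lie between 36.4 and 45.2% GC and the line of all genes slopes down, and with TNF-α it is flat and BTG2 is the only member called.

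After each library was corrected for its trend with GC content and exon length, 16 of the 22 calls for KD without TNF-α kept their direction and threshold. Of the 29 members, 9 were then called higher and 10 lower, beside 24 and 28.2% of all genes. RRM2B, MDM2, FDXR and PHLDA3 had the largest values as deposited, and these shrank to 1.01, 0.93, -0.71 and -0.68. TP53INP1 went from 1.07 to 0.50 and AEN from -0.69 to -0.59. CDKN1A was at -0.22 (adjusted p = 0.011) and BBC3 at -0.30 (adjusted p = 0.027). No longer called were CCNG1 (0.06), PPM1D (0.16), ZMAT3 (0.32) and SESN2 (-0.14), and the values of GDF15 (0.0039) and PLK3 (0.14) changed sign. RPS27L (-0.69), XPC (0.37) and PLK2 (0.18), not called as deposited, were called with the correction. Over the corrected values, rho with GC content was 0.0021 across all genes and -0.54 across the 29 members. The part that library composition has in these differences was not tested beyond this correction. The TNF-α effects in control cells moved little, with GADD45A at 1.27, TNFRSF10B at 1.11, BBC3 at 0.86, PLK3 at 0.75 and PLK2 at 0.37, and CDKN1A was then called (0.35, adjusted p = 0.01). For TNF-α in KD cells, 7 of the 24 calls were lost, those of BTG2 (0.01), DDB2 (0.033), SESN2 (0.040), SUSD6 (0.25), FAS (-0.037), TIGAR (-0.20) and ZMAT3 (-0.12). Of the 20 interactions called, 10 were lost, with BBC3 then at 0.028, SESN2 at -0.0034, DDB2 at 0.18, TP53I3 at 0.36, PHLDA3 at 0.51, FAS at -0.23 and ZMAT3 at -0.25. The other 3 lost calls moved less, with EDA2R at -0.37, PPM1D at -0.26 and TNFRSF10B at 0.27. BTG2 remained lower in KD cells with TNF-α (-0.59, adjusted p = 0.017), and PLK3 was called higher there (0.48, adjusted p = 0.035).

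**Figure D4:**
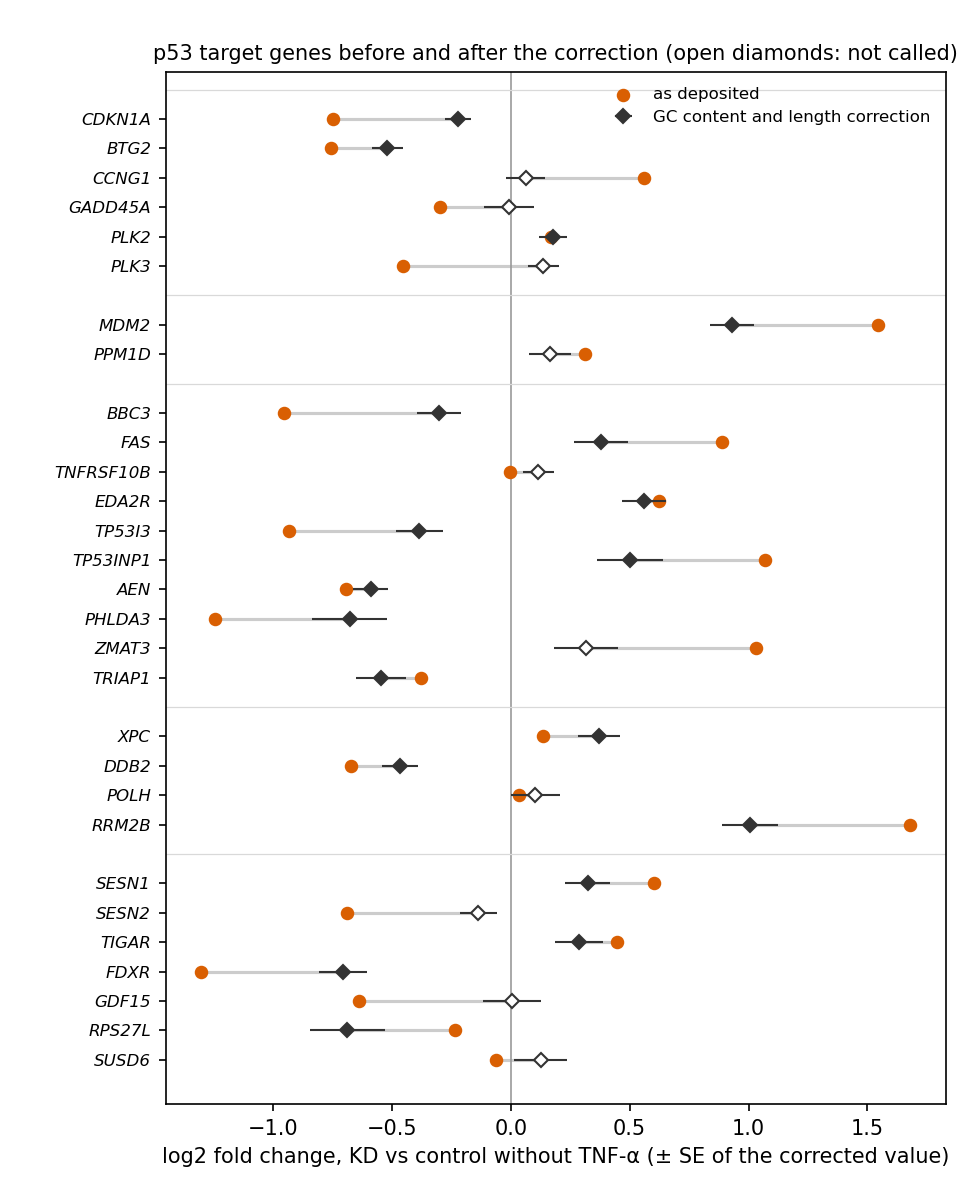
Log2 fold change (x axis) of KD against control without TNF-α for 29 p53 target genes as deposited (orange circles) and after correction of each library for GC content and exon length (diamonds with the standard error, open where not called). RRM2B moves from 1.68 to 1.01 and FDXR from -1.30 to -0.71, while GDF15 and PLK3 cross 0.

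RNA levels say nothing of the amount or activity of the p53 protein, which was not measured here. Of the 23 regulators of p53 listed, 22 were tested, and CDKN2A, the other one, had no more than 0.0267 FPKM in any library. In KD cells without TNF-α 12 were called higher, beside 29.8% of all genes tested, and 5 lower, beside 30.2%. In control cells TNF-α raised 1 of them, DAXX (0.68), a partner of MDM2 and PML, beside 3.1% of all genes. The largest rises in unstimulated KD cells were those of the kinases ATM (1.58) and ATR (1.31), of MDM4 (1.00), a p53 inhibitor related to MDM2, and of the deacetylase SIRT1 (0.98). With the GC content and length correction these were 0.79, 0.58, 0.45 and 0.52, and 10 regulators were higher and 4 lower, beside 24 and 28.2% of all genes. The largest corrected difference of a regulator was a fall, that of the ribosomal protein gene RPL5 (-0.93, and -0.39 as deposited), which is named after its value was seen. Of 30 further p53 targets, 26 were tested, with 8 higher and 11 lower in unstimulated KD cells, beside the same 29.8 and 30.2% of all genes. The largest of these differences were those of the helicase subunit ASCC3 (1.65), the 14-3-3 protein SFN (-1.32), the cytokine KITLG (1.17) and the cofactor SERTAD1 (-1.16). Corrected, they were 0.93, -0.69, 0.49 and -0.78, and 7 further targets were higher and 10 lower, beside the same corrected shares. Between KD and control cells with TNF-α limma and voom called none of either list, and at an unadjusted p under 0.05 there were 1 regulator and 6 further targets, beside 8.16% of all genes. With the correction 1 further target was called higher there, PMAIP1 (0.42, adjusted p = 0.039), which encodes the BH3-only protein NOXA and is named after its value was seen. In control cells TNF-α raised 6 of the further targets, beside 3.1% of all genes, and lowered PANK1 (-0.31), beside 1.14%. PANK1 was no longer called with the correction (-0.36, adjusted p = 0.076). The largest rises were of the tetraspanin CD82 (1.5), of PML (0.90), of the autophagy gene DRAM1 (0.85) and of the BH3-only gene BID (0.75). Of 18 cell cycle genes that p21 and the DREAM complex repress, 6 were higher and 10 lower in unstimulated KD cells (29.8 and 30.2% of all genes), from TOP2A at 2.16 to MYBL2 at -1.12 (1.54 and -0.53 with the correction). In control cells limma called none of them with TNF-α as deposited, with 2 at an unadjusted p under 0.05 beside 17.5% of all genes. Voom and the corrected fit each called 1 higher, TOP2A (0.55 and 0.50), beside 3.72% of all genes in either fit.

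The promoters were searched for the p53 site, 2 copies of the p53 half-site in a row, the element through which p53 acts. RefSeq windows of 250 bases before to 50 after a start (GRCh38.p14) were found for 25 of the 30 members, 37 windows in all. A full site was counted where 20 bases without a spacer kept the C and G of both half-site cores and had at most 3 mismatches. The half-site reads the same on both strands, so 1 scan covers both, and full sites and half-sites overlap. Full sites were found in 9 member windows (24.3%) of 8 members and in 392 of 35116 windows of all genes (1.12%). An exact half-site was in 7 member windows (18.9%) and in 6.63% of all windows. With full cores and at most 2 mismatches, 2 member windows and 55 of all windows (0.157%) held a site. p53 also binds outside these windows, and a match is not evidence of binding.

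Shown are 3 members that were higher and 3 that were lower in unstimulated KD cells, since a site was present on both sides. Capitals mark the 20 bases of the site, and the flanks are in lower case.
MDM2, chr12:68808918-68808947, + strand, 2 mismatches: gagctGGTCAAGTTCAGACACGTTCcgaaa
FAS, chr10:88991304-88991333, + strand, 2 mismatches: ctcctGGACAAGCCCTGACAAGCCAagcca
SESN1, chr6:109009013-109009042, - strand, 3 mismatches: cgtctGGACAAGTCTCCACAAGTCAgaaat
FDXR, chr17:74872991-74873020, - strand, 3 mismatches: ggcccGGGCAGGAGCGGGCTTGCCCtgcgg
AEN, chr15:88621301-88621330, + strand, 2 mismatches: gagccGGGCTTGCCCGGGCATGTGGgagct
DDB2, chr11:47214964-47214993, + strand, 1 mismatch: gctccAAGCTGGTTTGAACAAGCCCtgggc
Of the 8 members with a site, MDM2, FAS and SESN1 were higher in unstimulated KD cells, FDXR, AEN, DDB2 and GDF15 lower, and RPS27L was not called. None of the 5 members raised by TNF-α in control cells had a full site in its window, and 2 of them, GADD45A and TNFRSF10B, had no window.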

How the data were processed

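Sequencing of total RNA was done at Novogene (Illumina NovaSeq). The authors deposited FPKM values of 58735 genes in 8 libraries. The submitters' processing notes name CASAVA 1.8, fastp, HISAT2 2.0.5, featureCounts 1.5.0-p3, DESeq2 1.20.0 and GRCh38, and the study's methods name edgeR. Which of these made the deposited values, and the strand of counting, are not given in the sources used here. Whole reads were recovered from 100% of the FPKM values (tolerance 0.01 read). The library sizes behind the values were a median-of-ratios factor times the geometric mean of the 8 totals. They were 1.21 times the library's own total for both unstimulated KD libraries and 0.925 to 1.03 times elsewhere. Identifiers matched GENCODE 29 for 58735 genes.

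Genes were kept with 10 reads at the median depth in 2 libraries and 15 reads in all, which left 16528. FPKM are not counts, so log2(FPKM + 1) was fitted with limma 3.58.1 (trend, R 4.3.3), 1 mean per group over 8 libraries with 4 residual degrees of freedom, and Benjamini-Hochberg adjustment over all genes tested. The script was tested on simulated data. With 2 libraries against 2 the smallest two-sided permutation p is 0.333, so none was used. The GC content and length correction subtracted from each library a natural spline fit (5 degrees of freedom each) of its deviations from the gene means. Alternatives changed the pseudocount, the filter, the scaling, the block, the libraries and the threshold, or used voom on the recovered reads. A fit without both unstimulated KD libraries was added after seeing the data.

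The members and the lists of other genes were chosen with earlier results of these data known. Library values are given for members called without overlap with TNF-α or in the interaction and for the 6 largest differences of each other comparison, and the rest by range. Of the other lists, CDKN2A and up to 4 genes with the largest called change are named, and a further gene that the rule names is not reported here. The promoter sites were read from RefSeq windows.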

Additional observations from a re-analysis of the deposited data

Results flagged for a closer look

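The KD effect of 20 members differed between the conditions, tested by the interaction in limma (adjusted p under 0.05, KD effect with TNF-α minus that without, on the log2 scale). Of all genes, 23.8% were called positive and 22.3% negative. It was positive for FDXR (1.16), PHLDA3 (1.08), PLK3 (0.94), CDKN1A (0.91), TP53I3 (0.90), AEN (0.76), BBC3 (0.72), SESN2 (0.55), DDB2 (0.40) and TNFRSF10B (0.40). It was negative for RRM2B (-1.70), MDM2 (-1.68), TP53INP1 (-1.29), ZMAT3 (-0.97), CCNG1 (-0.93), SESN1 (-0.83), FAS (-0.75), EDA2R (-0.42), PPM1D (-0.40) and PLK2 (-0.34). All 20 rest on the 2 unstimulated KD libraries, whose mitochondrial share of reads and GC content stood apart. Their part in these values was not tested beyond the correction for GC content and length, under which 10 of the 20 were still called in the same direction. Of the 29 members tested, 12 were called with the correction, beside 35.6% of all genes called in either direction. The corrected values of the 10 that kept their call were 0.64 for AEN, 0.56 for FDXR, 0.38 for CDKN1A, 0.35 for PLK3, -0.36 for PLK2, -0.42 for CCNG1, -0.56 for SESN1, -0.72 for TP53INP1, -1.02 for RRM2B and -1.06 for MDM2. Without 1 library, the interactions of EDA2R and PPM1D were called in 1 of 8 fits and those of TNFRSF10B, DDB2 and PLK2 in 3 of 8.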

How the results depend on the processing

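With 2 libraries a group, no group was large enough to test for an outlying library. Whether replicate numbers pair the libraries cannot be told. The correlations of replicate differences between groups ran from -0.19 to 0.35, the highest being between unstimulated control and unstimulated KD cells. A replicate block takes a single shift for all groups, so it does not settle this. With the replicate block, KD with TNF-α called 0 members lower and 10 genes in all, and in control cells PLK2 was no longer called higher with TNF-α; no other call of a member changed. For KD with TNF-α, 0 members were lower with log2(FPKM + 0.1), without the filter, scaled to total reads, without both unstimulated KD libraries, or at an unadjusted p under 0.05 with an absolute log2 fold change above 1, and 1 member was higher with the GC content and length correction. The genes called there were 19, and 7 without the filter or without both unstimulated KD libraries, 39 in the 4 libraries compared, 66 with the GC content and length correction and 52 with voom. For TNF-α in control cells 701 genes were called, 368 without the filter, 238 in the 4 libraries compared and 443 without both unstimulated KD libraries. The fold threshold left 4 members higher, 2 lower and 1974 genes for KD without TNF-α, 2 higher members and 182 genes for TNF-α in control cells, 8 higher, 5 lower and 2374 genes for TNF-α in KD cells, and 2 positive, 3 negative and 2058 genes for the interaction. Positive interactions numbered 6 and negative ones 12 with total reads, beside 14.8 and 30% of all genes. With the GC content and length correction they numbered 5 and 7, beside 19.9 and 15.7%. With that correction GDF15 (0.0039) and PLK3 (0.14) reversed for KD without TNF-α and SESN2 (-0.0034) for the interaction, and with total reads BTG2 (-0.093) and DDB2 (-0.056) reversed for TNF-α in KD cells; the cause was not tested. Where leaving out 1 library left a single one in a group, it was assumed to vary like the others. This gave, for KD with TNF-α, 0 to 1 members higher, 0 to 1 lower and 0 to 98 genes. For TNF-α in control cells it gave 3 to 10 higher, 0 to 2 lower and 229 to 2130 genes. For the interaction it gave 5 to 13 positive, the lowest without the first TNF-α control library, and 5 to 11 negative, the lowest without the second unstimulated KD library. Over all genes, positive interaction calls were also fewest without the first TNF-α control library, and negative ones without the second unstimulated KD library. Interaction calls of members and of all genes were most numerous, in both directions, without the second unstimulated control library. The range of the member counts thus followed that of all genes. Depth limits mainly TIGAR, with as few as 15 reads in a library.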
